A study of Mus musculus with 11 samples.

Results

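The epithelia that descend from the ureteric bud were set against compartments that descend from mesenchyme in the fetal mouse urinary tract. The bud side held 5 of the 11 arrays of the series, 2 labelled Cortical Collecting Duct and 3 labelled Urothelium, the lining of the ureter. The other side held 6, with 3 labelled Early Proximal Tubule, a nephron segment, and 3 labelled Ureteral Smooth Muscle. The arrays were chosen by these labels alone, and each of the 4 compartments had equal weight. All 11 samples were wild-type CD-1 mice, an outbred stock, at E15.5 (Theiler stage 23), with sex given as unknown. Each was a pool of approximately 50 laser-captured sections from 5 kidneys, with RNA amplified in 2 rounds and hybridised to a one-colour Affymetrix array. The aim stated for the series was to profile discrete elements of the developing kidney. The contrast between lineages was drawn from the compartment labels. The labels give no stain and no landmarks for the cuts, and do not say whether pools shared animals. The p-values therefore measure only how these pools varied, and that variation may be technical.

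The ureteric bud is an outgrowth of the nephric duct that branches into the metanephric mesenchyme and gives rise to the collecting ducts, the renal pelvis and the lining of the ureter. The mesenchyme around its tips turns into nephron epithelium, which includes the proximal tubule, while mesenchyme around its stalk forms the smooth muscle of the ureter. Bud growth depends on Gdnf from the mesenchyme acting on the receptor Ret and its co-receptor Gfra1 in the bud, and Shh secreted by the bud stalk and urothelium acts on the surrounding mesenchyme. The comparison therefore sets 2 epithelia of 1 origin against an epithelium and a muscle layer of other origins.

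All values are log2(signal + 55) unless stated otherwise, so an unlit probe set stands near 5.78. Over the 13614 genes tested, array correlations across genes were 0.884 to 0.933 within a compartment, 0.832 to 0.909 between collecting duct and urothelium, 0.749 to 0.855 across the lineages and 0.714 to 0.768 between proximal tubule and smooth muscle. The median signal was 247 to 401 in bud arrays and 252 to 374 in the other arrays. For the Gapdh control, signal at the 3' end over signal at the 5' end, a sign of RNA length after amplification, was 12.3 to 55.3 in bud arrays and 6.79 to 18.2 in the other arrays. For the actin control it was 5.15 to 13.4 in bud arrays and 5.07 to 13.5 elsewhere. The part of RNA length in the results was not tested. The smooth muscle contractile markers of a 21-gene list had a summed signal of 22600 to 41042 in collecting duct and 76002 to 182215 in urothelium, against 19778 to 29453 in proximal tubule and 623523 to 820081 in smooth muscle. The urothelial arrays thus held contractile transcripts above the level of both kidney compartments. In such tissue pools, fewer cells of a type and less RNA per cell cannot be told apart.

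A gene was called when limma's adjusted p over all genes was under 0.05 and the bud mean differed from the other mean by a log2 of at least 1. It was named bud-high when it was called and both bud compartment means lay above both other means, and bud-low when it was called and both lay below. Of 13614 genes, 564 were called higher in the bud lineage (4.14%) and 355 lower (2.61%). Of these, 447 were bud-high (3.28% of genes tested) and 188 were bud-low (1.38%). Without collecting duct replicate 1 there were 278 bud-high and 123 bud-low genes, and without collecting duct replicate 2 there were 115 bud-low genes. The remaining 117 higher and 167 lower genes were called on the contrast without that order of means. The order can hold by a small margin, so it does not show that every compartment differed. The median difference was 1.98 for bud-high genes and -1.67 for bud-low genes, against -0.035 over all genes. The distance between the nearest bud mean and the nearest other mean was at least 1 for 218 bud-high and 53 bud-low genes, and at least 2 for 67 and 4. Over all genes, 265 (1.95%) had every bud array above every other array and 90 (0.661%) had every bud array below. Of the bud-high genes 220 were so separated, and of the bud-low genes 59. At the edge of the definition, the aldo-keto reductase Akr1c13 was just inside, with means of 9.60 in collecting duct and 11.29 in urothelium against 9.59 in smooth muscle. Dkk1, a secreted Wnt antagonist, was just outside, with 10.18 in collecting duct against 10.19 in proximal tubule. On the lower side the arsenic methyltransferase As3mt was just inside, 10.33 in urothelium against 10.34 in smooth muscle. The proline-metabolism gene Prodh2 was just outside, since its mean of 6.30 in collecting duct equalled that in smooth muscle to 2 decimals.

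Ion transport, apical sorting, a morphogen and transcription factors led the bud-high genes. The 14 leading genes were chosen for arrays that did not overlap and for the widest gap. Their separation between the lineages is therefore part of the choice and not a further result. Shh, the hedgehog ligand, had the largest difference. It stood at 15.39 and 14.93 in collecting duct with 13.39, 14.29 and 12.56 in urothelium, against 8.78, 10.19 and 6.88 in proximal tubule and 6.05, 9.14 and 7.71 in smooth muscle. Every bud array lay above every other array, and collecting duct was above urothelium. The difference was 6.16 ± 0.62 (SE, 5 against 6 arrays, limma adjusted p = 7.49e-05). Plet1, a surface protein anchored by a lipid that is known from epithelial progenitors, had the widest gap. Its values were 13.70 and 12.29 in collecting duct with 12.68, 13.30 and 12.18 in urothelium, against 6.13, 8.08 and 7.46 in proximal tubule and 8.29, 6.43 and 6.34 in smooth muscle. The lineages did not overlap, and the bud compartments overlapped each other (difference 5.74 ± 0.48, limma adjusted p = 2.01e-05). The 2 other probe sets of Plet1 differed by only 0.72 and 2.58. Scnn1g, the gamma subunit of the epithelial sodium channel, was at 12.93 and 12.33 in collecting duct with 12.56, 12.82 and 12.39 in urothelium, against 6.13, 9.19 and 6.61 in proximal tubule and 7.23, 6.28 and 6.92 in smooth muscle. The 5 bud arrays of Scnn1g lay close together, and the 6 others were all lower (5.55 ± 0.48, limma adjusted p = 2.76e-05).

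Gata3, a zinc finger factor required in the nephric duct, was at 14.33 and 13.93 in collecting duct with 13.38, 14.65 and 12.71 in urothelium, against 6.85, 10.02 and 9.31 in proximal tubule and 9.19, 8.75 and 8.82 in smooth muscle. All bud arrays of Gata3 were the higher ones (5.03 ± 0.52, limma adjusted p = 8.07e-05). Cldn8, a claudin of the tight junction, was at 14.04 and 14.63 in collecting duct with 13.11, 13.48 and 13.51 in urothelium, against 5.89, 8.80 and 6.10 in proximal tubule and 8.65, 8.14 and 9.34 in smooth muscle. Here too the lineages were apart, with 2 of the 3 proximal tubule arrays near the floor of the scale (6.03 ± 0.48, limma adjusted p = 1.61e-05). Esrp1, a splicing factor of epithelial cells, was at 13.62 and 13.74 in collecting duct with 14.15, 13.92 and 13.18 in urothelium, against 9.15, 9.38 and 8.97 in proximal tubule and 9.93, 8.82 and 8.60 in smooth muscle. Its proximal tubule and smooth muscle arrays overlapped, although the tubule is an epithelium as well (4.57 ± 0.32, limma adjusted p = 9.80e-06).

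Apela, a peptide hormone that binds the apelin receptor, was at 13.12 and 13.03 in collecting duct with 13.31, 13.02 and 12.30 in urothelium, against 7.64, 6.95 and 7.63 in proximal tubule and 8.69, 8.13 and 6.42 in smooth muscle. The lineages did not overlap (5.40 ± 0.40, limma adjusted p = 9.80e-06), and a second probe set of Apela differed by 1.65. The tetraspanin Tspan8 differed by 6.02 ± 0.55, the forkhead factor Foxq1 by 5.11 ± 0.47, and the apical sorting proteolipids Mal and Mal2 by 5.11 ± 0.37 and 5.54 ± 0.41. Other probe sets differed by 1.69 to 5.42 for Tspan8, 2.07 for Foxq1 and 4.14 for Mal. Tmem30b, a subunit of lipid flippases, differed by 5.20 ± 0.40, the transmembrane protein Slc35g1 by 4.72 ± 0.48 and the galactoside-binding lectin Lgals3 by 4.41 ± 0.54. These 7 genes had limma adjusted p from 9.80e-06 to 0.000295, and their lack of overlap between the lineages followed from the choice.

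**Figure D1:**
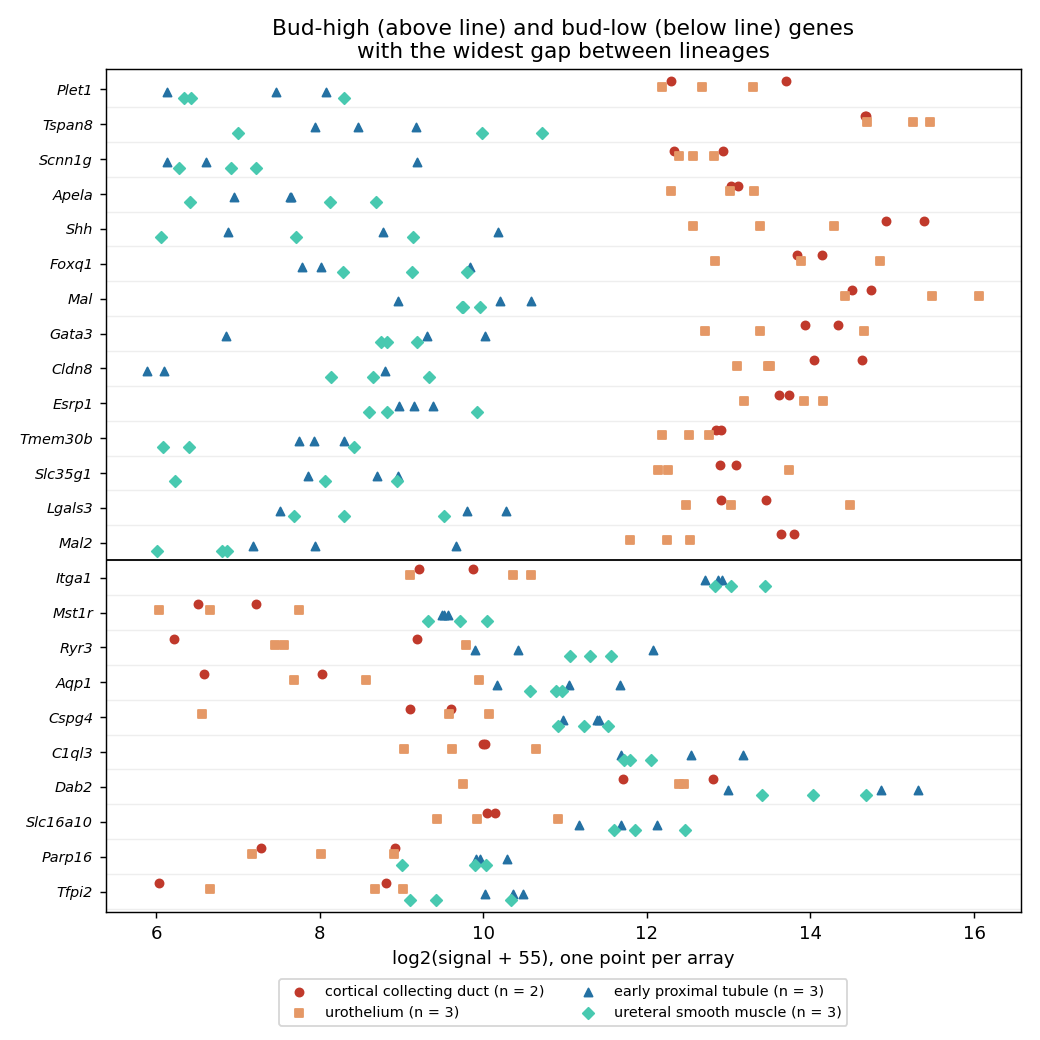
Log2(signal + 55) in each of the 11 arrays for the 14 bud-high genes (upper block) and 10 bud-low genes (lower block) with the widest gap among those whose arrays did not overlap. Circles are collecting duct (n = 2), squares urothelium (n = 3), triangles proximal tubule (n = 3) and diamonds smooth muscle (n = 3). The bud-high genes show wide separations, 6.16 for Shh at most, while the bud-low genes lie nearer the other compartments, with -3.19 for Itga1.

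The start regions of these leading genes are shown where they hold a searched motif. A window of 250 bases before to 50 after the gene start was found for 9 of the 14 genes in the RefSeq promoter table of GRCm38.p6, and 4 of them are printed, 5′ to 3′ on the gene's strand, with every match in capitals. The motifs were chosen for factors whose genes were tested here: TGTTTAC for forkhead factors such as Foxa1 and Foxq1, GCCNNNGGC for AP-2 factors such as Tfap2a, AGATAA for GATA factors and AACCNGTT for grainyhead-like factors such as Grhl2. Each was sought on both strands, GCCNNNGGC being its own reverse complement. The windows are chr10:115817034-115817333 (+) for Tspan8 and chr8:65037287-65037586 (-) for Apela, each with 1 forkhead match, and chr2:9878551-9878850 (-) for Gata3 and chr12:73546346-73546645 (-) for Tmem30b, with 3 matches and 1 match of the AP-2 motif.
Tspan8: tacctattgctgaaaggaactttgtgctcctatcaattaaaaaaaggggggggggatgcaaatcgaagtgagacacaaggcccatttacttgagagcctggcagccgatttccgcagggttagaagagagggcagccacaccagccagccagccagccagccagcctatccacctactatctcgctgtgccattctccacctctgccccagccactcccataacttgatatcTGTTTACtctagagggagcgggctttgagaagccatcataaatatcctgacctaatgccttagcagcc
Apela: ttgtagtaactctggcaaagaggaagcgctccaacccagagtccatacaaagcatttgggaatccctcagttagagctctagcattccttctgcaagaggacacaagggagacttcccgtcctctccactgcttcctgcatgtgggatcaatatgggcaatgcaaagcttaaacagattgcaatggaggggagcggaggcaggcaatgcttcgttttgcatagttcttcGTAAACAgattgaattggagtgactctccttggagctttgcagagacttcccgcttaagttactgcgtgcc
Gata3: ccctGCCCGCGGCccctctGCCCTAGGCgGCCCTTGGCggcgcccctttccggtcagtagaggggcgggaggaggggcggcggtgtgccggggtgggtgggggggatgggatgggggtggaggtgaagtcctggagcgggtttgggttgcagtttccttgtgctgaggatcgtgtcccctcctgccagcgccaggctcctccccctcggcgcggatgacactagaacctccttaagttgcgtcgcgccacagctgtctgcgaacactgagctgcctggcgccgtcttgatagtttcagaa
Tmem30b: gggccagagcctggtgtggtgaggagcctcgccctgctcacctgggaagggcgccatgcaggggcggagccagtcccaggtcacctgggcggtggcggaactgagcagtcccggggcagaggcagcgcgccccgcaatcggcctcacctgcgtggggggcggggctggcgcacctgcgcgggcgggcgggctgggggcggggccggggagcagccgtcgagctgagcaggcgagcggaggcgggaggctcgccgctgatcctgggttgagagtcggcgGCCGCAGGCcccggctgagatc
Of all 32851 windows, 3.65% held the forkhead motif, and among the 13999 windows of genes tested 2.77% did. The share was 3.92% for bud-high genes (18 of 459 windows, 343 of 447 genes matched) and 1.51% for bud-low genes (3 of 199 windows, 154 of 188 genes matched). The AP-2 motif stood in 21.8% of bud-high and 26.1% of bud-low windows, against 24.3% of windows of genes tested and 16.6% of all. The GATA motif stood in 7.84% and 7.04%, against 6.56% and 11.2%. The grainyhead-like motif stood in 3.27% and 1.51%, against 1.90% and 2.09%. A match is a description of letters and names no bound factor.

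A stricter question was whether each bud compartment by itself exceeded each other compartment. By the largest of the 4 pairwise p-values, adjusted over all genes, with each of the 4 differences at least 1, limma called 23 genes higher (0.169% of genes tested) and 1 lower (0.00735%). All 23 were bud-high, which the rule of 4 differences largely builds in. They comprised 12 of the genes described above (Shh, Plet1, Scnn1g, Gata3, Cldn8, Esrp1, Apela, Tspan8, Foxq1, Mal, Mal2 and Tmem30b), Slc35g1, and 10 others. Of those, Ehf, an epithelial ETS factor, differed by 5.00 ± 0.42, Cers3, a ceramide synthase, by 5.15 ± 0.39, Frk, a tyrosine kinase, by 4.67 ± 0.44 and Sprr2f, a small proline-rich protein, by 4.52 ± 0.52. Ap1s3, an adaptor subunit of vesicle traffic, differed by 4.47 ± 0.37, Adh1, an alcohol dehydrogenase that also oxidises retinol, by 3.59 ± 0.34 and the transcription factor Prdm16 by 3.39 ± 0.33. The last 3 were Wfdc15b, a whey acidic protein domain gene, Lrrfip1 and Lypd6, with differences of 3.35, 3.07 and 2.78. Over the 23 genes the adjusted p of the weakest pair was 0.0037 to 0.0471. With an unadjusted largest p under 0.05 there were 179 higher and 34 lower. With label batch as a fixed block 0 genes passed in either direction, and likewise without either of the 2 collecting duct arrays. On the higher side 14 passed without proximal tubule replicate 3, 15 without urothelium replicate 2 and 3 with a pseudocount of 12, against 36 with a pseudocount of 190.

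**Figure D2:**
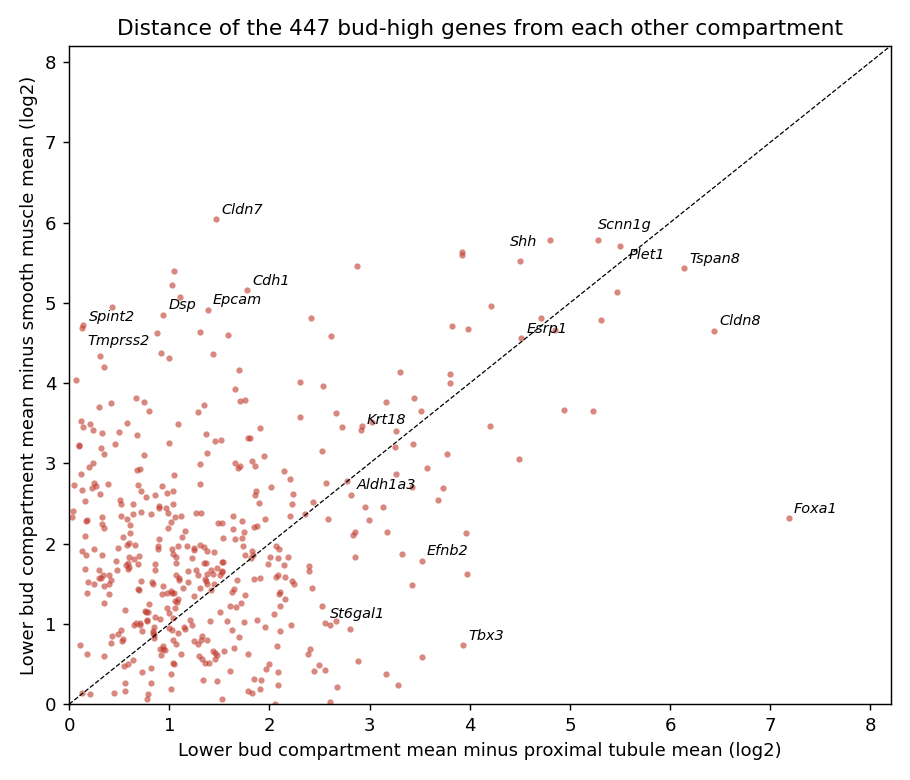
Each of the 447 bud-high genes by the log2 distance of its lower bud compartment mean from the proximal tubule mean (horizontal axis) and from the smooth muscle mean (vertical axis), with equality dashed. The 296 genes above the line were nearer to proximal tubule and the 151 below it nearer to smooth muscle, and Foxa1 and Tbx3 stand out on the smooth muscle side.

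Proximal tubule was the nearer of the other compartments for 296 bud-high genes and smooth muscle for 151. For bud-low genes the split was 74 and 114. How often proximal tubule lay above smooth muscle over all genes tested was not counted. The split is therefore not shown to be particular to bud-high genes. Cdh1, the adhesion protein E-cadherin, illustrates the larger bud-high set. It was at 14.69 and 14.41 in collecting duct with 15.03, 15.77 and 14.38 in urothelium, against 13.04, 13.27 and 12.02 in proximal tubule and 9.59, 9.22 and 9.37 in smooth muscle. The bud arrays were above both, with proximal tubule between them and muscle (3.72 ± 0.34, limma adjusted p = 3.48e-05). Foxa1, a forkhead factor, illustrates the smaller bud-high set. It was at 13.06 and 13.41 in collecting duct with 15.31, 16.01 and 14.42 in urothelium, against 6.06, 6.08 and 6.03 in proximal tubule and 11.74, 10.64 and 10.39 in smooth muscle. Proximal tubule was near the floor of the scale and smooth muscle lay between it and the bud arrays (5.75 ± 0.35, limma adjusted p = 4.43e-06). Tbx3, a T-box factor, and Efnb2, a membrane-bound ligand of Eph receptors, were likewise nearer to smooth muscle, with differences of 2.39 ± 0.41 and 3.08 ± 0.34. They were named after their values were seen.

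Genes of bud outgrowth were bud-high only in part. This and every later list count stands against 3.28% bud-high and 1.38% bud-low among all genes tested. Of 23 tested members of the ureteric bud and collecting duct list, 8 were bud-high and 0 bud-low (list median 1.51). Another 4 were called higher without exceeding both other compartments. Ret, the receptor of Gdnf, was at 11.18 and 12.54 in collecting duct with 8.59, 10.56 and 12.28 in urothelium, against 8.65, 6.20 and 9.66 in proximal tubule and 7.41, 7.19 and 6.07 in smooth muscle. Urothelium replicate 1 lay below 2 of the proximal tubule arrays, so the lineages overlapped (3.64 ± 0.69, limma adjusted p = 0.00611). A second probe set of Ret differed by -0.15, so the Ret call rests on 1 probe set. The co-receptor Gfra1 differed by 3.36 ± 0.40 without overlap, and the bud ligand Wnt9b by 2.73 ± 0.47 with overlap. Wnt7b, another Wnt ligand of the duct, differed by 1.51 ± 0.28. Calb1, a calcium-binding protein of the duct, was at 14.81 and 15.22 in collecting duct with 10.44, 7.12 and 14.35 in urothelium, a spread that overlapped with the 8.66, 9.97 and 10.30 of proximal tubule. Its difference was 4.31 ± 1.01 (limma adjusted p = 0.0205, and 0.078 with label batch as a block). The tip factor Wnt11 (0.28), Sox9 (0.94), Spry1 (0.59) and Etv5 (1.18) had adjusted p from 0.082 to 0.72 and were not called.

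Among epithelial transcription and splicing factors 10 of 19 tested members were bud-high and 0 bud-low, with a list median of 2.07. Besides Foxa1, Ehf and Esrp1 they were the grainyhead-like factors Grhl2 and Grhl3, the AP-2 factors Tfap2a, Tfap2b and Tfap2c, Klf5 and Pparg. Grhl2, which controls junction genes, was at 12.23 and 12.63 in collecting duct with 12.03, 14.06 and 12.54 in urothelium, against 7.84, 9.05 and 9.18 in proximal tubule and 9.71, 10.07 and 9.42 in smooth muscle. No array of the lineages overlapped (3.44 ± 0.40, limma adjusted p = 0.000194), but 1 of its 2 other probe sets differed by -0.07 and the other by 2.08. Tfap2a differed by 2.90 ± 0.35 and was higher in collecting duct, at 12.28 and 12.41, than in urothelium, at 10.26 to 10.89. Klf5 differed by 3.06 ± 0.41 and Pparg by 3.06 ± 0.56. Trp63, a basal cell factor, was at a mean of 13.5 in urothelium and 8.8 in collecting duct, against 9.1 in smooth muscle, so it was called on the contrast (3.08 ± 0.76) without being bud-high. Esrp2, the partner of Esrp1, differed by 1.79 ± 0.37 and had a mean of 11.05 in collecting duct and 11.90 in urothelium, against 12.07 in proximal tubule, which kept it out as well.

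Junction genes made the fullest group. In the epithelial adhesion and tight junction list 13 of 21 tested members were bud-high and 0 bud-low, with a median of 2.32. Besides Cdh1 and Cldn8 these included Epcam, an epithelial adhesion molecule (3.58 ± 0.41), and the claudins Cldn3 (3.82 ± 0.49), Cldn4 (2.73 ± 0.36), Cldn7 (3.79 ± 0.39), Cldn23 (3.68 ± 0.34) and Cldn6 (2.07 ± 0.35). Cldn3 was at 12.88 and 10.84 in collecting duct with 11.20, 11.12 and 12.11 in urothelium, against 7.04, 8.56 and 8.51 in proximal tubule and 7.93, 8.60 and 6.45 in smooth muscle. Its lineages were apart by more than a log2 of 2. Cldn1 was the exception among the claudins of the list, with a mean of 9.4 in collecting duct and 9.1 in urothelium against 11.7 in proximal tubule (-0.76 ± 0.42, adjusted p = 0.37). The shared tight junction proteins Cgn, Marveld2, Lsr and Pard6b were called higher on the contrast, but the proximal tubule mean lay between their bud means, so they were not bud-high.

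Desmosome genes had 5 of 10 tested members bud-high and 0 bud-low, with a median of 1.73. Dsc2, a desmosomal cadherin, was at 11.62 and 13.79 in collecting duct with 12.51, 13.12 and 12.17 in urothelium, against 7.41, 9.50 and 9.11 in proximal tubule and 5.89, 8.15 and 6.96 in smooth muscle. Its arrays did not overlap (4.82 ± 0.53, limma adjusted p = 0.000118). Dsp, the plakin that anchors keratin at the desmosome, was at 13.82 and 13.97 in collecting duct with 14.21, 14.53 and 13.01 in urothelium, against 13.03, 13.39 and 12.45 in proximal tubule and 8.74, 9.97 and 8.41 in smooth muscle. Urothelium overlapped with proximal tubule, and only muscle was far below (2.91 ± 0.38). Ppl, a plakin of the cornified envelope, differed by 1.89 ± 0.36. Of 10 tested keratins 6 were bud-high and 0 bud-low, with a median of 1.79. Krt18 was at 14.86 and 13.35 in collecting duct with 14.94, 16.17 and 14.66 in urothelium, against 10.59, 11.47 and 11.50 in proximal tubule and 10.75, 10.48 and 10.81 in smooth muscle. The bud arrays of this simple-epithelium keratin stood apart (3.75 ± 0.38, limma adjusted p = 7.49e-05). Its partner Krt8 differed by 2.46 ± 0.35, Krt7 by 3.31 ± 0.47, Krt19 by 3.58 ± 0.36, Krt23 by 2.85 ± 0.43 and Krt80 by 1.13 ± 0.28. Krt5, the basal keratin, did not pass (0.17 ± 0.33, adjusted p = 0.86).

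Epithelial proteases and their inhibitors had 7 of 13 tested members bud-high and 0 bud-low, with a median of 1.69. St14, the membrane protease matriptase, was at 12.66 and 11.32 in collecting duct with 12.74, 13.03 and 12.17 in urothelium, against 10.10, 10.19 and 10.71 in proximal tubule and 8.86, 6.53 and 8.79 in smooth muscle. The lineages did not overlap (3.12 ± 0.45, limma adjusted p = 0.00089), but with label batch as a block St14 was no longer bud-high by the order of means. The protease inhibitor Wfdc2 differed by 2.98 ± 0.39 and the serine protease Prss22 by 1.69 ± 0.38. Spint2, an inhibitor of St14, was at a mean of 15.9 in collecting duct and 15.8 in urothelium, against 15.7 in proximal tubule and 11.1 in smooth muscle, so its difference of 2.48 ± 0.36 was a difference from muscle. In the list of apical membrane and trafficking genes 9 of 21 were bud-high and 0 bud-low, with a median of 1.86. Mal, Mal2, Tspan8 and Tmem30b are among them, as are the clathrin adaptor Ap1m2 (2.49 ± 0.34) and the annexin Anxa3 (2.42 ± 0.32). Vil1, the brush border protein villin, went the other way, with a mean of 8.2 in collecting duct and 8.3 in urothelium against 13.2 in proximal tubule (-1.36 ± 0.54, adjusted p = 0.19).

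**Figure D3:**
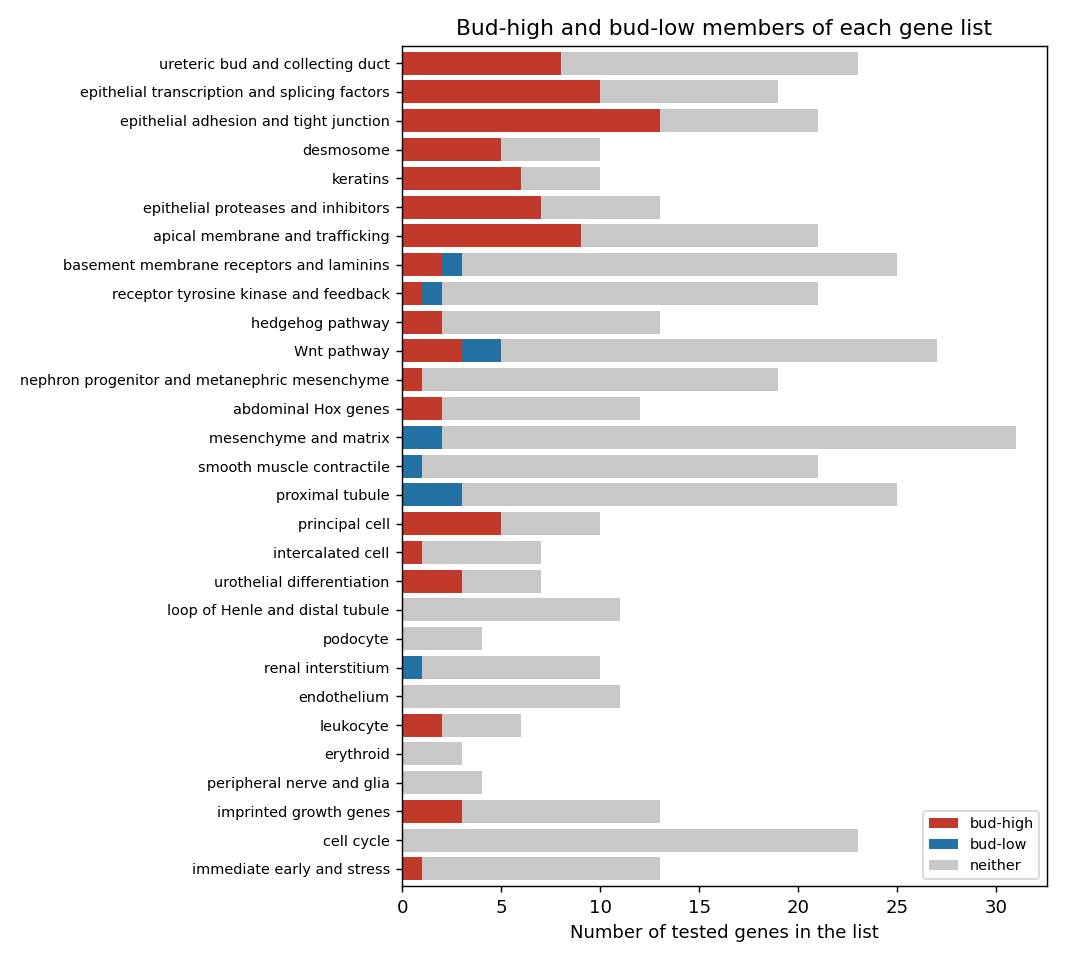
Number of tested genes in each of the 29 gene lists, split into bud-high (red), bud-low (blue) and neither (grey). The junction list has 13 bud-high of 21, while the 25-gene proximal tubule list has 3 bud-low and the 21-gene contractile list 1.

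Of 10 tested principal cell genes 5 were bud-high and 0 bud-low, with a median of 1.77. Fxyd4, a regulator of the sodium pump, was at 15.01 and 14.16 in collecting duct with 11.51, 11.37 and 12.80 in urothelium, against 9.60, 10.55 and 9.70 in proximal tubule and 9.12, 8.67 and 8.62 in smooth muscle. The order was duct, urothelium and then the others, with no overlap between lineages (3.87 ± 0.35, limma adjusted p = 3.48e-05). The glycerol and water channel Aqp3 differed by 2.82 ± 0.39, the sodium channel subunit Scnn1b by 1.91 ± 0.30 and the vasopressin receptor Avpr2 by 2.18 ± 0.54. The third sodium channel subunit, Scnn1a, was not called (1.40 ± 0.41, limma adjusted p = 0.0623), with means of 10.61 in collecting duct and 8.76 in urothelium, against 8.79 in proximal tubule and 7.78 in smooth muscle. The mineralocorticoid receptor Nr3c2 and Hsd11b2, which inactivates glucocorticoid, were not called either (1.63 ± 0.51 and 1.29 ± 0.47), with their highest means in collecting duct. The defining water channel of principal cells, Aqp2, was at 10.40 and 9.84 in collecting duct with 7.93, 8.19 and 8.93 in urothelium, against 8.75 to 8.91 in proximal tubule and 8.13 to 9.53 in smooth muscle. Aqp2 was thus highest in collecting duct, while urothelium overlapped with the other compartments, and it was not called (0.41 ± 0.33, adjusted p = 0.57). Of 7 intercalated cell genes 1 was bud-high, the ammonia transporter Rhcg (2.04 ± 0.42), at 10.61 and 9.34 in collecting duct and 6.56 to 8.50 in urothelium, against 6.50 to 7.15 in proximal tubule and 6.24 to 7.49 in smooth muscle.

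Of 7 tested genes of urothelial differentiation 3 were bud-high and 0 bud-low, with a median of 1.58. Upk3a, a uroplakin of the urothelial plaque, was at 8.43 and 8.58 in collecting duct with 13.91, 13.24 and 12.36 in urothelium, against 8.03, 6.83 and 6.65 in proximal tubule and 7.27, 8.60 and 8.75 in smooth muscle. Only urothelium was high, and collecting duct overlapped with muscle, so this bud-high call (3.15 ± 0.40) was carried by 1 compartment. Upk3b was at 8.44 and 8.78 in collecting duct with 12.21, 11.22 and 9.66 in urothelium, against 6.78, 7.48 and 7.84 in proximal tubule and 6.44, 6.40 and 7.22 in smooth muscle. Here collecting duct lay between urothelium and the other compartments, without overlap (2.79 ± 0.42, limma adjusted p = 0.00138). Sprr1a, a cornified envelope protein, differed by 1.84 ± 0.49 (limma adjusted p = 0.0383, and 0.0735 with label batch as a block).

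Hedgehog and Wnt genes were bud-high in part, against 3.28% of all genes. Of 13 hedgehog genes 2 were bud-high, Shh and Cdon, a co-receptor for it (1.84 ± 0.32). The Cdon arrays overlapped between the lineages, and its other probe set differed by 0.65. Responding genes of the pathway were not called higher. Gli1, a transcriptional target, had means of 8.1 in collecting duct and 8.0 in urothelium, against 8.6 in proximal tubule and 9.9 in smooth muscle, and Ptch1, the receptor, had 14.3 and 13.5, against 13.4 and 15.6. Hhip, an inhibitor that binds the ligand, was called lower on the contrast (-2.49 ± 0.52) with its high mean of 12.5 in smooth muscle alone. Of 27 Wnt pathway genes 3 were bud-high and 2 bud-low. Wnt4, best known from the conversion of mesenchyme to nephron epithelium, was at 12.13 and 11.39 in collecting duct with 12.56, 12.74 and 12.64 in urothelium, against 8.44, 9.51 and 10.42 in proximal tubule and 8.77, 8.16 and 6.29 in smooth muscle. The bud arrays did not overlap with the others (3.60 ± 0.46, limma adjusted p = 0.000409). The ligand Wnt10a differed by 1.83 ± 0.38 and Rnf43, which removes Wnt receptors from the surface, by 1.37 ± 0.31. The bud-low members of the pathway were the receptor Fzd1 (-1.07 ± 0.28) and Porcn, which acylates Wnt ligands (-1.14 ± 0.30). Axin2, a general Wnt target, had a difference of -0.00 ± 0.30.

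Of 21 genes of receptor tyrosine kinases and their feedback 1 was bud-high and 1 bud-low. That is near the 3.28% and 1.38% over all genes tested. Btc, the EGF-family ligand betacellulin, was at 13.68 and 14.04 in collecting duct with 10.96, 10.97 and 10.85 in urothelium, against 9.62, 9.73 and 8.50 in proximal tubule and 10.02, 9.64 and 8.81 in smooth muscle. Collecting duct was far above urothelium, and urothelium just above the others (3.01 ± 0.33, limma adjusted p = 0.000118). Met and Erbb3, receptors of epithelial growth signals, were called higher on the contrast (2.04 ± 0.42 and 2.52 ± 0.45) with the proximal tubule mean between the bud means. Fgfr4 was called lower on the contrast (-1.39 ± 0.38, limma adjusted p = 0.0423), with its highest mean, 13.6, in proximal tubule. It was not bud-low. Of 19 nephron progenitor genes 1 was bud-high, Six4 (1.80 ± 0.43), again near the share over all genes. Of 12 abdominal Hox genes Hoxd8 and Hoxd9 were bud-high and 0 bud-low. Hoxd9 was at 13.83 and 12.39 in collecting duct with 12.71, 12.50 and 12.76 in urothelium, against 10.13, 10.06 and 11.58 in proximal tubule and 10.09, 11.02 and 10.96 in smooth muscle. All its bud arrays were above the rest (2.24 ± 0.38), as were those of Hoxd8 (2.66 ± 0.37), while Hoxd10 and Hoxd11 next to them in the cluster had -0.61 ± 0.63 and -0.38 ± 0.48.

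Among 13 imprinted growth genes the transcription factors Peg3 (1.10 ± 0.28) and Plagl1 (1.27 ± 0.34) and the growth inhibitor Phlda2 (2.19 ± 0.31) were bud-high and 0 bud-low. Of 13 immediate early and stress genes only the heat shock gene Hspa1b was bud-high, against 3.28% of all genes tested. It was at 13.35 and 13.29 in collecting duct with 12.85, 13.79 and 12.90 in urothelium, against 10.18, 11.48 and 9.89 in proximal tubule and 12.05, 12.08 and 12.28 in smooth muscle (1.92 ± 0.34). Of 6 tested leukocyte genes 2 were bud-high. Ptprc, the common leukocyte antigen CD45, was at 11.11 and 12.49 in collecting duct with 8.85, 6.07 and 10.82 in urothelium, against 6.39, 6.65 and 9.63 in proximal tubule and 6.50, 7.43 and 6.02 in smooth muscle. Its urothelial arrays ran from the floor to the level of the duct (3.09 ± 0.78, limma adjusted p = 0.0301, and 0.052 with label batch as a block). Cd14 differed by 1.48 ± 0.36, and the other 4 genes of the list were not called. Of these Csf1r, Lyz2 and Tyrobp differed by -0.18, 0.06 and 0.03, and the macrophage receptor Mrc1 by 1.34 ± 0.39 (limma adjusted p = 0.0568). The summed signal of the leukocyte list was 5062 to 9739 in collecting duct and 1989 to 4659 in urothelium, against 2017 to 6047 in proximal tubule and 1135 to 1658 in smooth muscle. The part of leukocytes in these 2 calls was not tested.

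The bud-low genes were fewer and closer to the rest. The 10 of widest gap were likewise chosen for arrays that did not overlap, so that separation is part of the choice. Itga1, the alpha 1 subunit of a collagen and laminin receptor, was at 9.21 and 9.88 in collecting duct with 10.36, 9.10 and 10.58 in urothelium, against 12.87, 12.72 and 12.92 in proximal tubule and 12.83, 13.45 and 13.03 in smooth muscle. The 6 other arrays formed a narrow band above all bud arrays (-3.19 ± 0.33, limma adjusted p = 7.50e-05), and Itga1 was the 1 gene that passed all 4 pairs on the lower side (adjusted p = 0.017). Mst1r, the receptor tyrosine kinase Ron, was at 6.51 and 7.22 in collecting duct with 6.04, 6.66 and 7.74 in urothelium, against 9.52, 9.57 and 9.49 in proximal tubule and 10.05, 9.33 and 9.72 in smooth muscle. Here as well the lineages were apart, with several bud arrays near the floor (-2.77 ± 0.34, limma adjusted p = 0.000278).

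Aqp1, a water channel of proximal tubule and vessels, was at 6.58 and 8.02 in collecting duct with 9.95, 8.57 and 7.69 in urothelium, against 10.17, 11.05 and 11.68 in proximal tubule and 10.58, 10.96 and 10.89 in smooth muscle. Smooth muscle stood as high as proximal tubule, and both lay above all bud arrays (-2.87 ± 0.44, limma adjusted p = 0.00149). Ryr3, a calcium release channel, was at 6.22 and 9.20 in collecting duct with 9.79, 7.45 and 7.56 in urothelium, against 10.43, 12.07 and 9.90 in proximal tubule and 11.06, 11.56 and 11.30 in smooth muscle. Its bud arrays were spread over more than a log2 of 3 without reaching the others (-3.06 ± 0.60, limma adjusted p = 0.00692). The 2 other probe sets of Ryr3 differed by -1.21 and -0.33. Dab2, an endocytic adaptor, was at 11.71 and 12.80 in collecting duct with 12.45, 9.75 and 12.40 in urothelium, against 14.86, 15.31 and 12.99 in proximal tubule and 14.67, 14.03 and 13.41 in smooth muscle. The gap between the lineages was narrow, and urothelium replicate 2 was the lowest (-2.32 ± 0.56, limma adjusted p = 0.0242, and 0.0761 with label batch as a block).

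The secreted protein C1ql3 (-2.27 ± 0.36), the aromatic amino acid transporter Slc16a10 (-1.73 ± 0.34) and the ADP-ribosyltransferase Parp16 (-1.78 ± 0.40) were also bud-low without overlap of arrays. So were Cspg4, the proteoglycan NG2 (-2.20 ± 0.52), and Tfpi2, a serine protease inhibitor (-2.19 ± 0.53), with limma adjusted p of 0.0219 and 0.0246. Both of the last missed the threshold with label batch as a block (adjusted p = 0.0645 and 0.0541). Of the 25 tested basement membrane genes 1 was bud-low, Itga1, and 2 bud-high, the laminin chains Lama5 (1.63 ± 0.32) and Lamb3 (1.86 ± 0.42), neither of which was bud-high with the block. Over all genes tested 1.38% were bud-low and 3.28% bud-high. Another integrin subunit, Itga5, was called lower on the contrast (-1.53 ± 0.25, limma adjusted p = 0.00215). It was not bud-low, since its mean of 8.45 in collecting duct lay above the 8.31 of smooth muscle. The collagen chain Col4a1 lay lower in every bud array, 12.51 to 14.68 against 14.87 to 15.64 elsewhere, but missed the threshold (-1.22 ± 0.36, limma adjusted p = 0.0585).

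Many markers of the other compartments were called lower on the contrast, and a smaller number also lay below both other compartments, against 1.38% bud-low and a median of -0.035 over all genes. In the proximal tubule list 12 of 25 genes were called lower, and 3 of them, Slc22a6, Aqp1 and Dab2, were bud-low (list median -1.64). The organic anion transporter Slc22a6 was at 6.61 and 6.13 in collecting duct with 7.36, 7.78 and 6.51 in urothelium, against 11.12, 12.21 and 13.15 in proximal tubule and 8.28, 6.50 and 8.47 in smooth muscle. Proximal tubule alone was high, and smooth muscle overlapped with urothelium (-3.16 ± 0.46). In the contractile list 10 of 21 were called lower and 1 was bud-low, the intermediate filament protein Des (-1.60 ± 0.42, limma adjusted p = 0.0368, and 0.0779 with the block), with a list median of -1.40. In the mesenchyme and matrix list 5 of 31 were called lower and 2 were bud-low, with a median of -0.87. These were the homeobox factor Meis1 (-1.67 ± 0.41) and the collagen chain Col1a1 (-1.53 ± 0.36). Col1a1 was at 11.97 and 12.59 in collecting duct with 12.86, 11.15 and 12.58 in urothelium, against 12.14, 12.02 and 12.85 in proximal tubule and 14.83, 15.62 and 15.12 in smooth muscle. Only smooth muscle was high, and proximal tubule overlapped with both bud compartments. The general mesenchyme gene Vim had a difference of -0.91 ± 0.38 (adjusted p = 0.21), with means of 12.3 in collecting duct and 14.2 in urothelium, against 12.7 in proximal tubule and 15.6 in smooth muscle.

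Several lists gave no call in either direction. Of 23 cell cycle genes, 11 endothelial, 4 podocyte, 3 erythroid and 4 nerve and glia genes, 0 were called by limma, with medians of -0.18, -0.11, 0.31, 0.08 and 0.43. Over all genes tested 4.14% were called higher and 2.61% lower, so 0 calls in lists this short is near that share. Of 11 genes of the loop of Henle and distal tubule 0 were bud-high or bud-low, although 1 was called lower on the contrast and 1 higher. The higher one was Pou3f3, a factor of the loop (limma adjusted p = 0.00013). Its means were 14.9 in collecting duct and 13.9 in urothelium, against 14.1 in proximal tubule and 8.6 in smooth muscle. In the renal interstitium list 1 of 10 was bud-low, the guidance cue Ntn1 (-1.26 ± 0.31, limma adjusted p = 0.0258, and 0.0887 with the block).

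The contrast can be split into a pair within the kidney, collecting duct against proximal tubule, and a pair within the ureter, urothelium against smooth muscle, which share no array. In the kidney pair limma called 298 genes higher in collecting duct (2.19% of genes tested) and 497 lower (3.65%). In the ureter pair it called 685 higher in urothelium (5.03%) and 399 lower (2.93%). The kidney pair had 366 calls in all without collecting duct replicate 1, 358 without replicate 2 and 475 without proximal tubule replicate 2, against 795 with every array. On the higher side 107 genes were called in both pairs, which is 35.9% of the kidney genes and 15.6% of the ureter genes. On the lower side 12 were called in both, 2.41% of the kidney genes and 3.01% of the ureter genes. A further 44 were lower in the kidney pair and higher in the ureter pair, and 15 the reverse. Over all 13614 genes the differences of the pairs had a Pearson correlation of 0.028 across genes, which are not independent replicates. The 14 bud-high genes of widest gap were chosen by a rule that requires a large difference in both pairs, which favours like values. None of the 14 had a called difference between the pairs (limma adjusted p 0.115 to 0.98), so that is no separate result. The smallest of these p-values was that of Cldn8, with 7.41 ± 0.72 in the kidney and 4.65 ± 0.64 in the ureter. The kidney and ureter differences were 5.77 ± 0.71 and 5.70 ± 0.64 for Plet1, 6.54 ± 0.93 and 5.78 ± 0.83 for Shh, and 4.51 ± 0.48 and 4.63 ± 0.43 for Esrp1. For Itga1, also chosen by gap, they were -3.29 ± 0.49 and -3.09 ± 0.43.

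**Figure D4:**
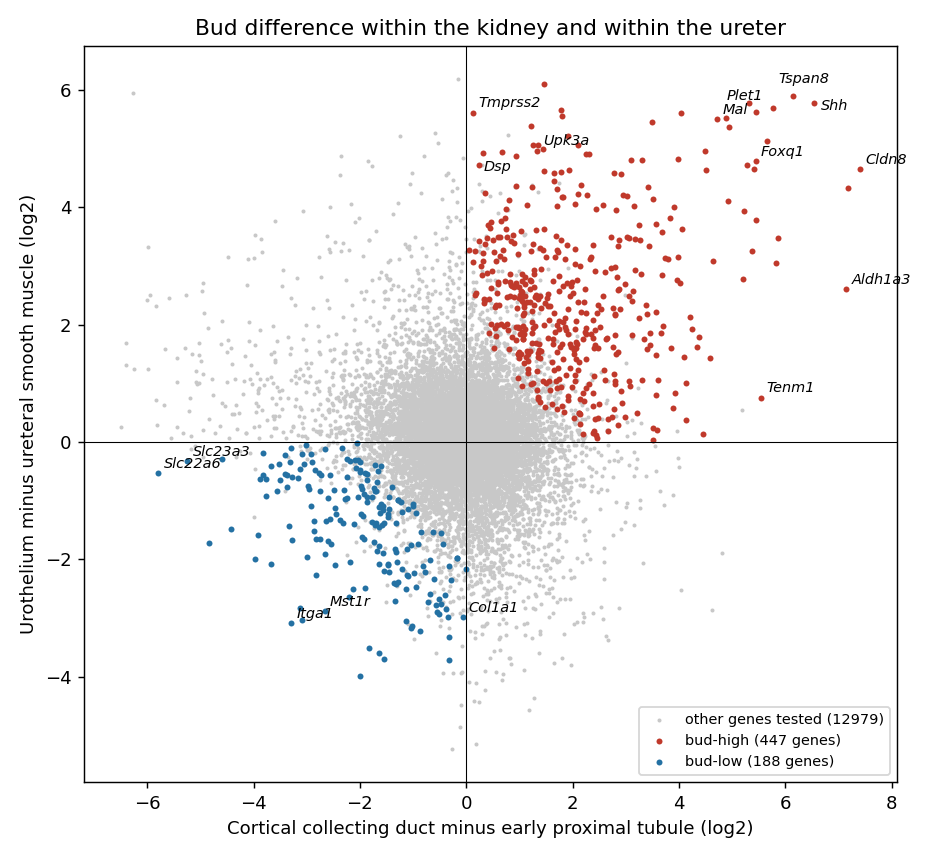
Each of the 13614 genes by its log2 difference within the kidney (collecting duct minus proximal tubule, horizontal) and within the ureter (urothelium minus smooth muscle, vertical). The 447 bud-high genes (red) and 188 bud-low genes (blue) lie in opposite quadrants by definition, with Shh and Plet1 far along both axes and Tmprss2, Upk3a, Tenm1, Slc22a6 and Col1a1 along 1.

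The test of the difference between the pairs called 896 genes, 275 with a more positive difference in the kidney (2.02%) and 621 with a more positive one in the ureter (4.56%). Of the 447 bud-high genes 53 were among them, 18 with the larger difference in the kidney and 35 in the ureter. Of the 188 bud-low genes 29 were, 24 larger in the kidney and 5 in the ureter. Tmprss2, a membrane serine protease, had the widest contrast of the bud-high genes. It was at 14.14 and 13.13 in collecting duct with 14.62, 15.37 and 13.72 in urothelium, against 13.95, 14.22 and 12.36 in proximal tubule and 8.17, 9.72 and 8.98 in smooth muscle. The 3 epithelia overlapped and only smooth muscle was low, giving 0.13 ± 0.67 in the kidney and 5.62 ± 0.60 in the ureter (limma adjusted p of the difference = 0.0029). Aldh1a3, which makes retinoic acid, showed the opposite. It was at 13.43 and 14.07 in collecting duct with 9.57, 8.24 and 10.46 in urothelium, against 6.55, 7.34 and 5.92 in proximal tubule and a mean of 6.81 in smooth muscle. No bud array overlapped with the others, yet the difference was 7.14 ± 0.67 in the kidney and 2.61 ± 0.60 in the ureter (limma adjusted p of the difference = 0.00861). On the whole contrast Aldh1a3 differed by 4.88, and its 2 other probe sets by 1.47 and 1.96. Tenm1, a teneurin of the cell surface, was at 13.54 and 12.74 in collecting duct with 7.41, 8.43 and 10.83 in urothelium, against 7.50 to 7.78 in proximal tubule and 7.66 to 8.69 in smooth muscle. Only collecting duct was high throughout, and its differences were 5.54 ± 0.76 and 0.76 ± 0.68. Slc23a3, a member of the ascorbate transporter family, was at 6.15 and 8.37 in collecting duct with 6.70, 6.09 and 8.14 in urothelium, against 11.96, 12.60 and 12.96 in proximal tubule and 7.63, 7.39 and 6.89 in smooth muscle. It was high in proximal tubule alone, with -5.25 ± 0.69 in the kidney and -0.33 ± 0.61 in the ureter.

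The labels carry a date-like part whose meaning is not stated, and it splits the arrays into 4 label batches. It stands in the title of 10 arrays and in the source name of collecting duct replicate 2, the 1 bud array of batch 3. Each batch held both lineages, so the bud difference could be read inside each. Batches 1 and 2 held only ureter arrays, batch 3 only kidney arrays, and batch 4 collecting duct, proximal tubule and smooth muscle. The sign was the same in all 4 batches for 408 of 447 bud-high and 154 of 188 bud-low genes. These genes were called on the same arrays, so a shared sign is largely built in and is no separate check. The share over all genes was not counted. Inside batches 1 to 4 the difference was 5.72, 7.33, 6.39 and 6.43 for Shh, 6.40, 4.39, 4.52 and 7.42 for Plet1 and -3.19, -2.46, -2.94 and -3.95 for Itga1. For Aqp1 it was -2.76, -0.63, -3.34 and -3.98, with the smallest step in batch 2. With label batch as a block limma called 360 bud-high and 103 bud-low genes, and 310 and 90 of these were also called without it. Besides those named above, the bud-high calls of Akr1c13, Avpr2, Cd14, Grhl3, Krt80, Peg3 and Rnf43 and the bud-low calls of As3mt, Col1a1, Fzd1 and Porcn missed the threshold with the block, with limma adjusted p from 0.0598 to 0.107. Spint2, St14, Lama5, Lamb3, Tmprss2 and Exph5 kept an adjusted p under 0.05 with the block but were no longer bud-high, since their fitted bud means no longer both lay above both others. Lamb3 and Tmprss2 had the opposite sign in batch 3, at -0.43 and -0.15, and Exph5 in batches 1 and 2, at -0.68 and -0.49.

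**Figure D5:**
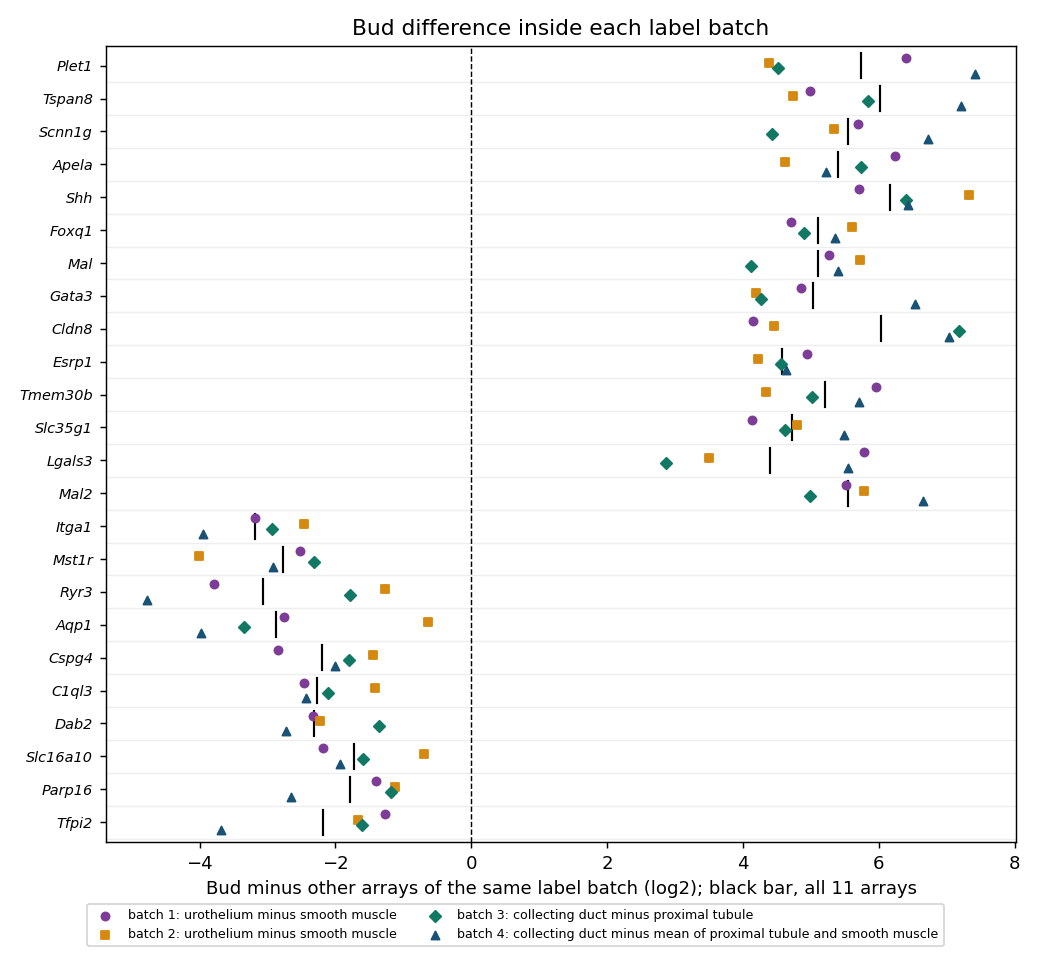
Bud minus other arrays of the same label batch, on the log2 scale, for the 24 genes of widest gap, with a black bar for the estimate over all 11 arrays. Circles and squares are batches 1 and 2 (urothelium minus smooth muscle), diamonds batch 3 (collecting duct minus proximal tubule) and triangles batch 4 (collecting duct minus the mean of proximal tubule and smooth muscle). All values of a gene lie on 1 side of 0, which follows from choosing genes whose arrays did not overlap. Aqp1 at -0.63 in batch 2 is the closest to 0.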

How the data were processed

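Each sample was measured on 1 one-colour Affymetrix array, and the deposited values are linear probe set intensity values that the authors obtained with GCOS, per the submitters' processing notes, which state no version. The 2% trimmed mean was 1500 in every array, so the arrays were compared as deposited. No detection calls were used here.

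Values were taken as log2(signal + 55). Of 45101 probe sets, 64 controls and those without exactly 1 gene symbol were dropped, a probe set had to exceed its array's median in at least 2 arrays, and the one of highest mean stood for its gene, leaving 13614 genes. For 31 genes named by rule 48 other probe sets were kept. Of these 46 had the same sign, several with a much smaller difference. One limma 3.58.1 model (R 4.3.3) held the 4 compartment means, and p-values were adjusted by Benjamini-Hochberg over all genes. Replicate counts were 2 collecting duct and 3 of each other compartment, which limits precision. The genes named by rule were the 14 bud-high and 10 bud-low genes of widest gap without overlap of arrays, up to 3 bud-high or bud-low members of each list by gap, and the 3 highest and 3 lowest called kidney minus ureter differences among them. Other genes printed are list members, edge cases, or genes chosen after their values were seen. The members and the 29 gene lists were chosen with earlier results of these data known. The script was tested on simulated data. Alternatives were other pseudocounts, quantile normalization, filters, other probe set rules, limma variance settings, one mean per lineage, label batch as a block and leaving out arrays.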

Additional observations from a re-analysis of the deposited data

Results flagged for a closer look

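For 13 named genes the difference between bud and other compartments was itself different in the kidney and in the ureter, by limma's test of that difference adjusted over all genes. The value given first is the kidney difference (collecting duct minus proximal tubule) minus the ureter difference (urothelium minus smooth muscle), in log2. It was more positive in the ureter for the bud-high protease Tmprss2, at -5.49 (0.13 in the kidney and 5.62 in the ureter, limma adjusted p = 0.0029). The desmosomal plakin Dsp had -3.93 (0.94 and 4.87, adjusted p = 0.00794), and the uroplakins Upk3a and Upk3b had -3.63 and -3.10 (adjusted p = 0.0163 and 0.0455). The laminin chain Lamb3 had -3.03 (adjusted p = 0.0482) and the imprinted gene Phlda2 -2.89 (adjusted p = 0.0135).

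The bud-low transporters Slc22a6 and Slc23a3 had -5.26 and -4.92, since both were far lower in collecting duct than in proximal tubule (-5.79 and -5.25) and close to level in the ureter (-0.53 and -0.33). The bud-low collagen chain Col1a1 had 2.93, with -0.06 in the kidney and -2.99 in the ureter (adjusted p = 0.0281). The bud-high genes with the larger difference in the kidney were Tenm1 at 4.78, Aldh1a3 at 4.54, Exph5 at 3.77 and Btc at 3.14, with limma adjusted p of 0.0128, 0.00861, 0.0433 and 0.0119. Exph5 overlapped between the lineages and, with label batch as a block, was no longer bud-high, as was the case for Tmprss2 and Lamb3. The cause of these differences was not tested.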

How the results depend on the processing

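The counts of 447 bud-high and 188 bud-low genes moved under several alternatives. With one mean per lineage in place of 4 compartment means limma called 156 and 29, a model in which differences between compartments of a lineage count as spread. With label batch as a fixed block bud-low fell to 103, the strict test over all 4 pairs gave 0 higher and 0 lower, and the ureter pair gave 719 genes against 1084. With a pseudocount of 12 the strict test gave 3 higher and 0 lower, and with 190 it gave 36 higher. Leaving out 1 array at a time gave 278 to 425 bud-high and 115 to 214 bud-low genes, 0 to 22 higher and 0 to 2 lower genes in the strict test, 358 to 826 in the kidney pair, 742 to 1082 in the ureter pair and 428 to 857 with different pairs. Without collecting duct replicate 1 there were 278 bud-high and 123 bud-low genes, and 366 in the kidney pair. Without collecting duct replicate 2 there were 115 bud-low genes, 358 in the kidney pair and 428 with different pairs. Either omission leaves 1 collecting duct array, which is assumed to vary like the other groups, and gave 0 genes in the strict test. Without proximal tubule replicate 2 there were 475 in the kidney pair and 567 with different pairs. In the strict test 14 genes were higher without proximal tubule replicate 3 and 15 without urothelium replicate 2, while Itga1 missed it without any 1 of the proximal tubule arrays or urothelium replicate 2. Leaving out the 3 arrays of label batch 3, chosen after seeing the data, left 166 bud-high and 22 bud-low genes, 1 higher and 0 lower in the strict test, 15 in the kidney pair and 3 with different pairs. That leaves 1 collecting duct and 1 proximal tubule array. The other alternatives run, which were quantile normalization, both filters, the mean of probe sets, no cross-hybridising probe sets, trended robust variances and label batch as a random block, kept every count within 1.5 times. Other causes were not tested, and no named gene or count changed direction under any alternative run. No paired analysis was possible because the numbers in the titles and source names repeat within a compartment and the compartments of the kidney pair and of the ureter pair share at most 1 of them; label batch was fitted as a block instead. Without detection calls, values near the floor of the scale have no reliable order.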
